A study of Mus musculus with 6 samples.

Results

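Genes of the actin cytoskeleton were followed in mouse endoderm before and after culture on mesenchyme. The members were chosen by name from the probes of the deposited value table: actins, alpha-actinins, actin-related proteins and Arp2/3 subunits, myosin light and heavy chains, tropomyosins, troponins, calponins, transgelins, caldesmon, filamins, cofilins, profilins, beta-thymosins, ezrin, moesin, radixin, villins, vinculin, zyxin, talins, cyclase-associated proteins and Ahnak. This gave 61 probes of 57 genes among 11097 probes of 7774 named genes. All 5 probes of Actb were kept, and every other gene was read at its brightest probe. Genes of these families with no named probe in the table, Actg1, Flna, Tln1 and Vil1 among them, were not analysed here.

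Expression was read on Illumina bead arrays with 1 colour. R1 mouse embryonic stem cells with a Sox17-GFP reporter construct, which marks cells that switch on an endoderm transcription factor, received Activin A and Wnt3A for 6 days, and reporter-positive cells were sorted by flow cytometry. The 3 groups were unpassaged cells on gelatin (P0), and reporter-positive cells after 6 passages on either of 2 mouse mesenchymes, numbered 1 and 2. The 2 arrays of each group are technical duplicates per the design text. With 1 culture behind each group (n = 2 arrays), the p-values cover array-to-array spread alone. The labels do not name the tissue of either mesenchyme. Passage number and growth surface both differ between P0 and the passaged groups, so their parts cannot be told apart. A rise or fall on a mesenchyme names the group and not a cause.

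Actin monomers assemble into filaments that give cells their shape, cortex and contacts. Profilins, cofilins and beta-thymosins set how fast monomers are added, released or held back, the Arp2/3 complex starts branches, and alpha-actinins and filamins tie filaments together. Myosins pull on or walk along these filaments, and tropomyosins and calponins decorate them. Vertebrates have cytoplasmic actins in all cells and further actins named after muscle types, and many genes of both kinds respond to serum response factor (SRF), which binds a DNA element called the CArG box and is switched on when free actin monomers become scarce.

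Promoter sequences are shown for the members that carry this element and were called different in a comparison below, so that the element can be seen beside their values. A RefSeq window of 300 bases (250 before and 50 after the start, build GRCm38.p6) was matched to 49 of the 57 genes. Actb, Actg2, Actn3, Myo5b, Tagln, Arpc5l, Actr5 and Actr8 had no window and were not searched. The CArG box, which reads as a match on both strands, stood in a window of 8 of them (16.3%), against 109 of 6378 genes with a window and a named probe (1.71%). Of the 8, 5 were called in at least 1 of the comparisons below and 3 (Arpc4, Myl6 and Vcl) in none, where 39.3% of the member probes and 31.1% of all probes were called in at least 1. With 8 genes no share can be read from this. Only exact matches to CCWWWWWWGG, where W is A or T, were counted, so near matches are neither counted nor marked. A match is a description of these letters, not evidence of binding. In the lines that follow the sequence runs 5′ to 3′ on the gene's strand and capitals mark the CArG box.
Acta1 (chr8:123894726-123895025, minus strand): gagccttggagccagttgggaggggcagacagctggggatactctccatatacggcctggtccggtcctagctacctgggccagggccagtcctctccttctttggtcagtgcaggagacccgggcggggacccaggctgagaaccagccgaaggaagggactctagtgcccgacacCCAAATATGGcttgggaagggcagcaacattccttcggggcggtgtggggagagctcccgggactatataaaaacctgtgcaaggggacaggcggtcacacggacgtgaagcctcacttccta
Actc1 (chr2:114052826-114053125, minus strand): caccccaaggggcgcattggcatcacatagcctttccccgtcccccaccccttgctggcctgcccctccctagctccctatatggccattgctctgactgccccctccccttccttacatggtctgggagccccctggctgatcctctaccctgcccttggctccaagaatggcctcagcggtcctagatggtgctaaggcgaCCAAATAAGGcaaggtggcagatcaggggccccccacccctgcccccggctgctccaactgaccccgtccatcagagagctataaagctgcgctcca
Myl3 (chr9:110763428-110763727, plus strand): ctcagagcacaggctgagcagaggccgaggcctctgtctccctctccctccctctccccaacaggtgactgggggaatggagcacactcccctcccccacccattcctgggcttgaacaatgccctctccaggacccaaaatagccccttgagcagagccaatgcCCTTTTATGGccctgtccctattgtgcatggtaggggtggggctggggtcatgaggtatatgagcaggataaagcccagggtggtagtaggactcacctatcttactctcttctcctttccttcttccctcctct
Myl7 (chr11:5898733-5899032, minus strand): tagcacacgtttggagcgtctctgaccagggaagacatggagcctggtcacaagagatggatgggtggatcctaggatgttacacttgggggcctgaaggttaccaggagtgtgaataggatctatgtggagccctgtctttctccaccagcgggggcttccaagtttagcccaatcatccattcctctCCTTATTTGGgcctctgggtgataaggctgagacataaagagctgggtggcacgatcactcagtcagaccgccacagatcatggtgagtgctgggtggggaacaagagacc
Cnn2 (chr10:79988350-79988649, plus strand): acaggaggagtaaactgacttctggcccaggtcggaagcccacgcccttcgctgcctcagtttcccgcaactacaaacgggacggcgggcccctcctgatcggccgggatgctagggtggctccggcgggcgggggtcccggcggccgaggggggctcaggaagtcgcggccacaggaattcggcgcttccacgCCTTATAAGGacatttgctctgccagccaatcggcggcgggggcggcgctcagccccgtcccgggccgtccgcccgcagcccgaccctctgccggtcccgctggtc
The box began 73 bases upstream of the start in Acta1, 47 in Actc1, 85 in Myl3, 61 in Myl7 and 56 in Cnn2.

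Intensities are given as deposited, after the authors' normalization. A difference is on the log2 scale and stands with its standard error (±) from a limma fit over all 6 arrays and 8400 probes. A probe was called, and is said to have risen or fallen, at a Benjamini-Hochberg adjusted p under 0.05 and a fold of at least 2. Array medians lay between 127.6 and 135.5 and array means between 393 and 394. Detection calls were not used, so dim probes may be at background, and 7 of the 61 members averaged under 50. In bulk RNA, fewer cells of a type and less RNA per cell cannot be told apart. Sox17, the gene behind the sort, stood at 103 and 90.6 on the P0 arrays, 83.2 and 80.5 on mesenchyme 1 and 722 and 679.9 on mesenchyme 2. Foxa2, Cxcr4 and Cer1 of the endoderm markers have no named probe here. The 8 pluripotency markers summed to 24136 and 24854 in P0, 24963 and 23286 on mesenchyme 1 and 13516 and 12863 on mesenchyme 2. Dppa5a was the largest part of each sum. Against P0, Utf1, Tdgf1, Pou5f1, Zfp42 and Dppa4 fell on mesenchyme 2 by 2.63, 2.52, 1.48, 1.17 and 1.11. Nanog, Sox2 and Dppa5a differed there by -0.50, -0.56 and -0.68. No pluripotency marker was called on mesenchyme 1. The 9 markers of definitive and extraembryonic endoderm with a named probe summed to 1034 and 1106 in P0 and 1075 and 1082 on mesenchyme 1. On mesenchyme 2 they summed to 7750 and 7648, and 7 of them rose there against P0. Ttr was the largest part of that sum, at 3157 and 3119, while Foxa1 and Hhex differed from P0 by -0.50 and 0.10. On mesenchyme 1 the near-equal sum held opposite changes: Gata6, Srgn and Afp rose by 1.13, 1.27 and 1.32, Foxa1 fell by 1.32, and Ttr differed by -0.79.

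Between mesenchyme 1 and P0 the actins held 5 of 9 calls. Actg2 was the 1 member that rose, and 8 probes fell: 3 of Actb, and those of Acta1, Ahnak, Tnnc1, Tmsb10 and Myl4. These 9 calls were 14.8% of the 61 member probes, against 5.5% of all 8400 tested (2.62% higher and 2.88% lower). At the gene level, with Actb at its brightest probe, 7 of 57 were called. The median difference of the members was -0.19, against -0.02 over all probes tested. Tested against a 2-fold change in place of no change, only the 3 Actb probes kept their calls.

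Between mesenchyme 2 and P0, 10 member probes rose and 7 fell. The rises were led by Myl3, Myo7a, Myo5b and Acta1, and the falls by 2 probes of Actb, Actn3 and Myo1f. The 17 calls were 27.9% of the members, against 18.8% of all probes (10.3% higher and 8.48% lower), and the median was 0.23 against 0.02. With 50 added to every intensity 10 of the calls were left, and tested against a 2-fold change 9.

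Between the cultures on the 2 mesenchymes, 11 member probes were higher on mesenchyme 2 and 6 lower. Myl3, Acta1, Myo7a, Tnnc1 and Ahnak were the largest of the higher ones, and Actn3, Myo1f, Actg2 and Myo10 of the lower ones. The 17 calls were again 27.9% of the members, close to the 25.4% of all probes (13.9% higher and 11.5% lower), and the median was 0.34 against 0.02. With 50 added to every intensity 11 were left. Both passaged groups are compared with the same P0 arrays, so the first pair of comparisons is not independent. Over all 3 comparisons, 37 of the 61 member probes were called in none and 24 (39.3%) in at least 1, against 31.1% of all probes.

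**Figure D1:**
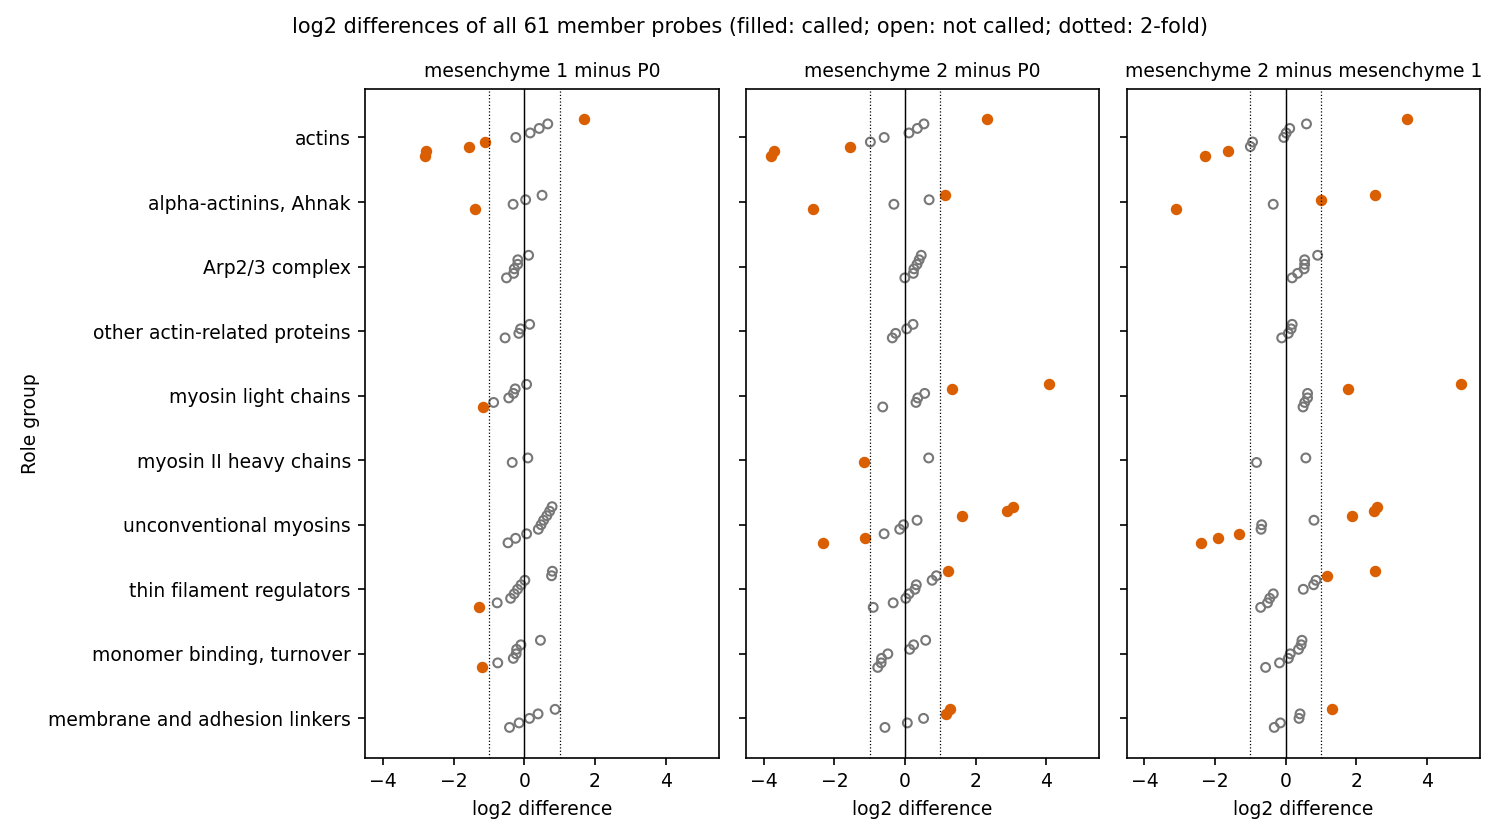
log2 differences of the 61 member probes (x axis) by role group (y axis) in the 3 comparisons, 1 point per probe, filled where called and open where not, with dotted lines at 2-fold. Actins hold called points on both sides of 0 in all 3 comparisons and unconventional myosins in those with mesenchyme 2, while no Arp2/3 subunit passes the dotted lines.

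Actb, the cytoplasmic beta-actin often used as a reference gene, gave different answers at its different probes. The brightest, ILMN_1377923, read 4215 and 4219.6 on the P0 arrays, 1419 and 1401 on mesenchyme 1 and 1444 and 1411 on mesenchyme 2. It was lower in both passaged cultures than in P0, at -1.58 ± 0.0823 (adjusted p = 0.00014) and -1.56 ± 0.0823 (adjusted p = 1.31e-05), and the passaged cultures overlapped.
Probe ILMN_2846865 read 1164 and 1029 in P0, 154 and 159 on mesenchyme 1 and 80.3 and 76.2 on mesenchyme 2. It fell by 2.81 ± 0.0977 on mesenchyme 1 and by 3.81 ± 0.0977 on mesenchyme 2, a 14.0-fold lower level than in P0 (adjusted p = 1.52e-06). Probe ILMN_2588055 followed it closely, at 971 and 926 in P0, 133 and 144 on mesenchyme 1 and 73.3 and 71.5 on mesenchyme 2, with differences from P0 of -2.78 ± 0.0896 and -3.71 ± 0.0896. For both, all arrays of P0 lay above all of mesenchyme 1, and those above all of mesenchyme 2.
The other 2 Actb probes showed no such fall. ILMN_2698799 read 1586 and 1749 in P0, 1327 and 1496 on mesenchyme 1 and 2049 and 2203 on mesenchyme 2, with differences from P0 of -0.24 ± 0.105 and 0.35 ± 0.105. ILMN_2617433 read 436 and 488 in P0, 537 and 497 on mesenchyme 1 and 509 and 490.2 on mesenchyme 2, with differences of 0.16 ± 0.0987 (95% interval -0.07 to 0.40) and 0.11 ± 0.0987 (95% interval -0.12 to 0.35). Neither was called in any comparison.
The distance between the highest and the lowest Actb probe was 2.97 (log2) for mesenchyme 1 against P0 and 4.16 for mesenchyme 2 against P0. Over the 2007 genes with more than 1 probe the median distance was 0.27 and 0.26, and Actb ranked 2 and 1. Among the 103 genes with at least 4 probes it ranked 1 in both. Between the mesenchymes its distance was 1.59, against a median of 0.28, and ranked 48 of 2007 and 5 of 103. These ranks describe a pattern seen in the data and carry no test. The sequences and positions of the probes were not used here, so which part of the transcript each reads was not tested, and Actb has no single level in these data.

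**Figure D2:**
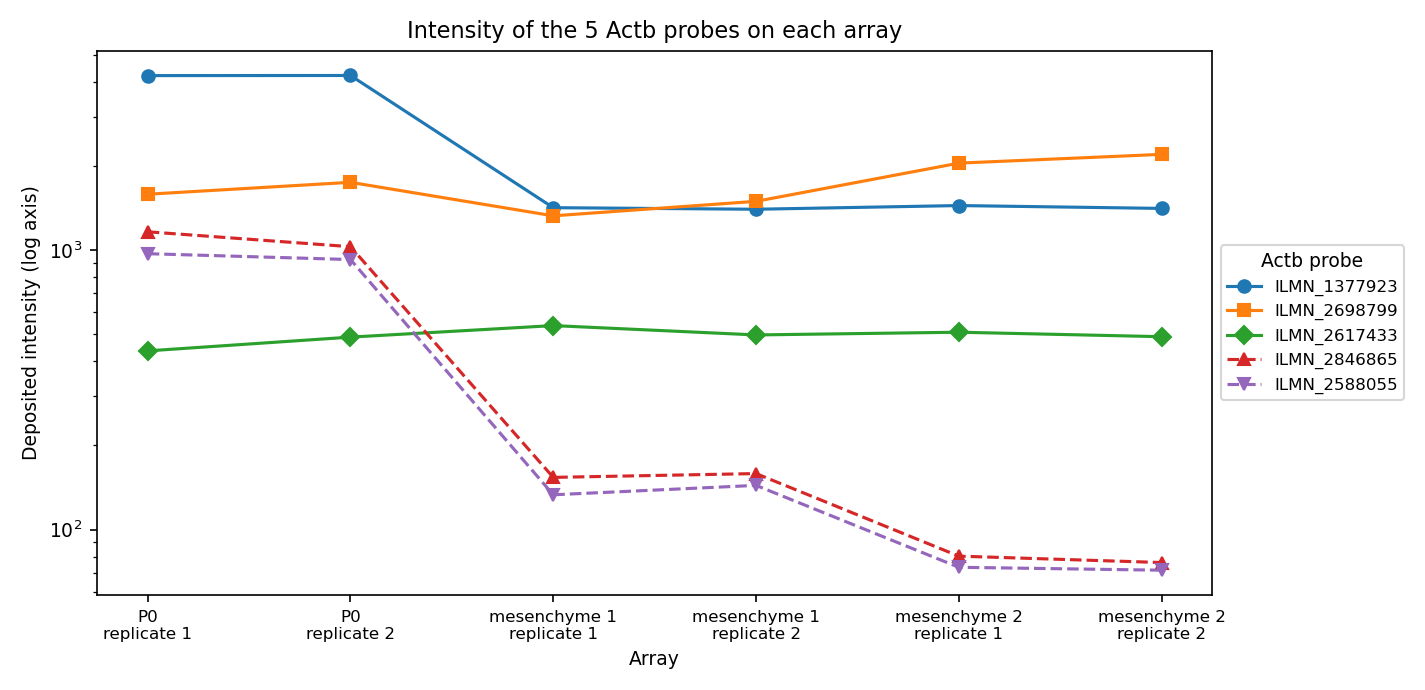
Deposited intensity (y axis, log scale) of each Actb probe on each of the 6 arrays (x axis), with a line joining the points of 1 probe. ILMN_2846865 and ILMN_2588055 drop from P0 to mesenchyme 1 and reach the lowest points of the plot on mesenchyme 2, while the points of ILMN_2617433 lie between 436 and 537.

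The actins named after muscle types moved in different directions. Acta1, the skeletal alpha-actin whose promoter is printed above, read 178 and 188 in P0, 80.2 and 88.7 on mesenchyme 1 and 851 and 979 on mesenchyme 2. It fell by 1.12 ± 0.108 on mesenchyme 1 (adjusted p = 0.000641) and rose by 2.32 ± 0.108 on mesenchyme 2 (adjusted p = 8.34e-06), and stood 10.8-fold higher on mesenchyme 2 than on mesenchyme 1. The groups did not overlap. With 16 added to every intensity the fall on mesenchyme 1 was just under 2-fold, at -0.99.
Actg2, the gamma-actin of enteric smooth muscle, read 149.7 and 141 in P0, 449.8 and 485 on mesenchyme 1 and 107 and 87.7 on mesenchyme 2. Its order was the reverse of that of Acta1: it rose by 1.68 ± 0.118 on mesenchyme 1 (adjusted p = 0.000271) and was 4.83-fold lower on mesenchyme 2 than there (adjusted p = 8.25e-06). Against P0 it differed by -0.59 ± 0.118 on mesenchyme 2, short of 2-fold.
Actc1, the cardiac alpha-actin, was dim throughout, at 55.6 and 55.5 in P0, 81.1 and 95.4 on mesenchyme 1 and 21.8 and 36.5 on mesenchyme 2. It too was lower on mesenchyme 2 than on mesenchyme 1, at -1.64 ± 0.227 (adjusted p = 0.000601), and its second probe gave -1.45 ± 0.268. With 50 added the difference was -0.81 and the call was lost. Centred on array medians Actc1 was called against P0 as well, at -1.05, and so it was without mesenchyme 2 replicate 2, at -1.35.
Acta2, the smooth muscle alpha-actin and a marker of contractile fibroblasts, read 3058 and 3373 in P0, 4057 and 4554 on mesenchyme 1 and 4749 and 4576 on mesenchyme 2. Its differences from P0 were 0.42 ± 0.102 and 0.54 ± 0.102, so both passaged cultures lay above P0 by less than 2-fold. Its 3 other probes differed from P0 by 0.72, 0.80 and 0.86 on mesenchyme 1 and by 0.53, 0.20 and 0.45 on mesenchyme 2. Between the mesenchymes the brightest probe gave 0.12 and the other 3 gave -0.19, -0.60 and -0.41, so the order of the passaged cultures depends on the probe. Coding sequences of actins are much alike, and signal shared between their probes cannot be told apart here.

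Light chains, the small subunits that stiffen the myosin neck and regulate the motor, showed the largest rise of all members. Myl3, the essential light chain of ventricular and slow muscle, read 27.8 and 28.2 in P0, 14.9 and 15.8 on mesenchyme 1 and 429 and 531 on mesenchyme 2. It stood 17.0-fold higher on mesenchyme 2 than in P0 (4.09 ± 0.119, adjusted p = 2.07e-06), and was dim in the other groups. The fold rests on those low levels.
Myl7, the regulatory light chain of atrial muscle, read 49.1 and 67.2 in P0, 44.3 and 40.3 on mesenchyme 1 and 124 and 168 on mesenchyme 2. It rose on mesenchyme 2 by 1.33 ± 0.193 against P0 (adjusted p = 0.000967) and was higher by 1.77 ± 0.193 against mesenchyme 1. With 50 added, the rise against P0 was 0.85 and no longer called.
Myl4, the essential light chain of atrial and embryonic muscle, took another course, at 557 and 479 in P0, 217 and 243 on mesenchyme 1 and 333 and 335 on mesenchyme 2. It fell on mesenchyme 1 by 1.17 ± 0.11 (adjusted p = 0.000578) and stood between the other groups on mesenchyme 2, -0.63 ± 0.11 from P0.
The nonmuscle light chains stayed within 2-fold. Myl6, the essential light chain of nonmuscle and smooth muscle myosin, read 2762 and 2908 in P0, 3125 and 2806 on mesenchyme 1 and 4125 and 4222 on mesenchyme 2, and was 0.56 ± 0.0945 from P0 on mesenchyme 2. The regulatory chain Myl12b read 1461 and 1448 in P0, 1106 and 1245 on mesenchyme 1 and 1788 and 1825 on mesenchyme 2. All 6 light chains had positive differences between mesenchyme 2 and mesenchyme 1, from 0.49 to 4.96, and all 6 passed the adjusted p without the fold limit, as did 69.7% of all probes in either direction. With a positive difference, 3016 of 8400 probes passed it.

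Heavy chains of nonmuscle myosin II, the motor of the cell cortex, lay on either side of P0 on mesenchyme 2. Myh10, nonmuscle myosin IIB, read 361 and 319 in P0, 272 and 263 on mesenchyme 1 and 161 and 142 on mesenchyme 2. It fell on mesenchyme 2 by 1.17 ± 0.108 (adjusted p = 0.000125), or by 0.95 with 50 added. Myh9, nonmuscle myosin IIA, read 974 and 845 in P0, 1049 and 900.4 on mesenchyme 1 and 1453 and 1441 on mesenchyme 2, with its highest arrays on mesenchyme 2 and a difference from P0 of 0.67 ± 0.115, under 2-fold.

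Unconventional myosins, which carry cargo or tether membranes to actin, held 9 members, and 6 of them were called between the mesenchymes, 3 in each direction, where 13.9% of all probes were higher and 11.5% lower. Myo7a, a myosin of stereocilia and of pigment epithelium, read 7.98 and 8.15 in P0, 11.1 and 11.3 on mesenchyme 1 and 68.6 and 66.6 on mesenchyme 2. It rose by 3.07 ± 0.0829 on mesenchyme 2 (adjusted p = 1.84e-06), from P0 levels close to the lowest intensity of the table, 7.49.
Myo5b, which moves recycling endosomes to the apical face of epithelial cells, read 15.4 and 14.5 in P0, 14.6 and 26.5 on mesenchyme 1 and 117 and 107 on mesenchyme 2. Its rise on mesenchyme 2 was 2.90 ± 0.25 against P0 (adjusted p = 9.39e-05) and 2.50 ± 0.25 against mesenchyme 1, while P0 and mesenchyme 1 overlapped. Myo1c, a class I myosin that links membranes to actin, read 18.7 and 15.9 in P0, 18.8 and 11.3 on mesenchyme 1 and 44.1 and 64.0 on mesenchyme 2, a rise on mesenchyme 2 of 1.62 ± 0.268. That call was lost with 50 added, at 0.62.
The members that fell on mesenchyme 2 were Myo1f, Myo10 and, against mesenchyme 1 alone, Myo5a. Myo1f, a class I myosin best known from immune cells, read 108 and 112 in P0, 123 and 107 on mesenchyme 1 and 17.6 and 27.4 on mesenchyme 2, a difference of -2.32 ± 0.198 from P0 (adjusted p = 8.93e-05). P0 and mesenchyme 1 overlapped.
Myo10, the myosin of filopodial tips, read 82.8 and 91.7 in P0, 148 and 153 on mesenchyme 1 and 40.5 and 38.5 on mesenchyme 2. The 3 groups did not overlap, and mesenchyme 2 differed from mesenchyme 1 by -1.93 ± 0.0941 (adjusted p = 6.39e-06) and from P0 by -1.14 ± 0.0941. Its second probe gave -2.41 ± 0.16 and -1.32 ± 0.16, and on mesenchyme 1 passed the rise limit at 1.09 ± 0.16 where the brightest stood at 0.78 ± 0.0941. With 16 added the difference of the brightest probe from P0 on mesenchyme 2 was -0.89.
Myo5a, a carrier of melanosomes and vesicles, read 44.5 and 57.4 in P0, 77.9 and 88.3 on mesenchyme 1 and 29.7 and 37.9 on mesenchyme 2, and was lower on mesenchyme 2 than on mesenchyme 1, at -1.31 ± 0.167 (adjusted p = 0.000419), a call lost with 16 added at just under 2-fold. Myo9b read 410.3 and 384 in P0, 621 and 612 on mesenchyme 1 and 345 and 432 on mesenchyme 2. It was highest on mesenchyme 1, 0.64 ± 0.123 above P0 and short of 2-fold. Myo18a, which ties the Golgi to actin, read 107 and 109 in P0, 76.3 and 80.6 on mesenchyme 1 and 126 and 149 on mesenchyme 2 and was called in no comparison. Myo9a was called only without mesenchyme 2 replicate 1, at -1.07 between the mesenchymes.

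**Figure D3:**
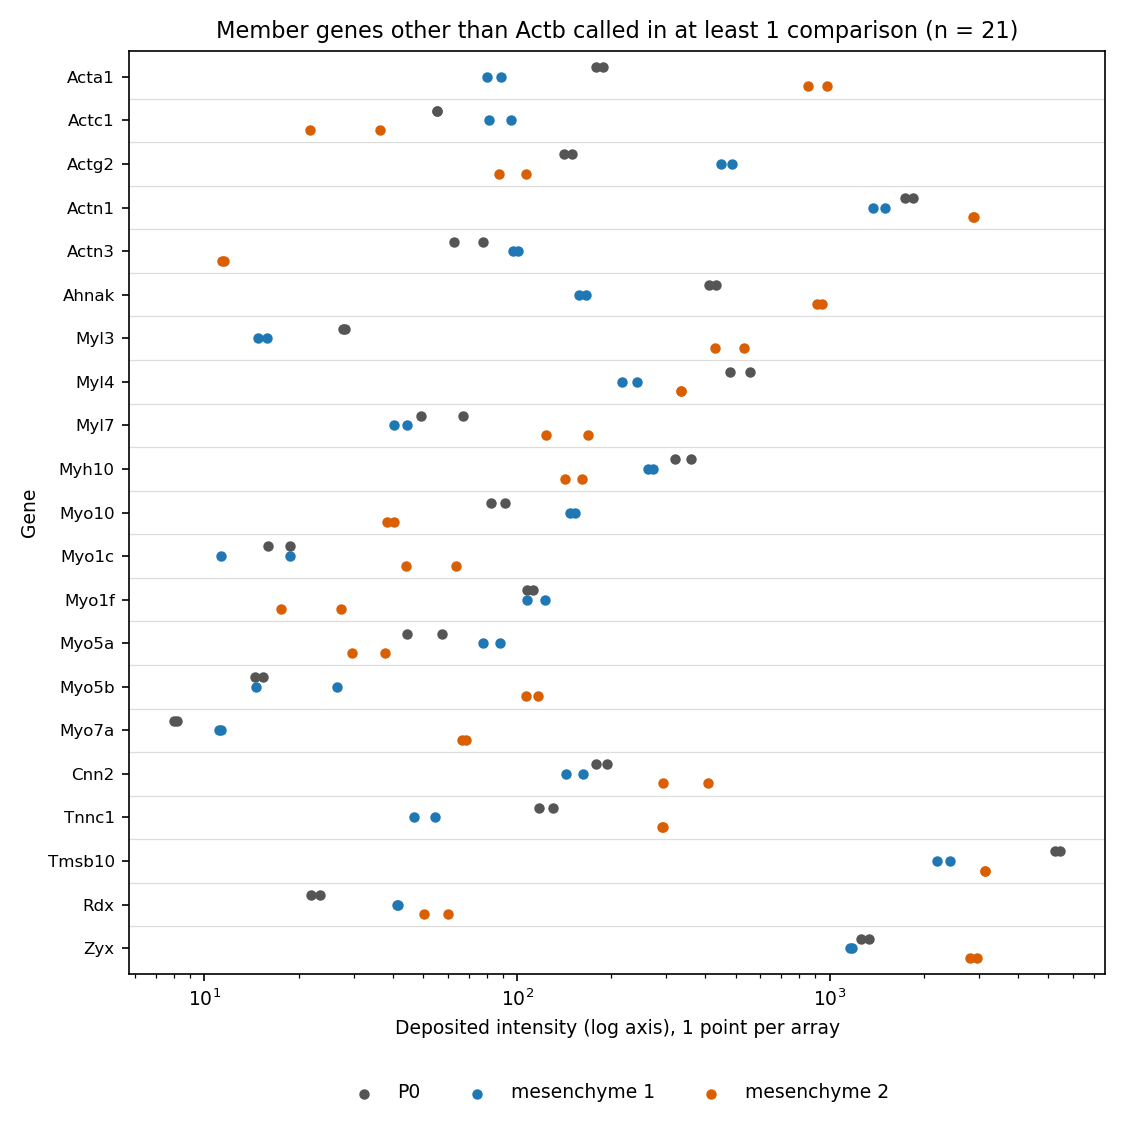
Deposited intensity (x axis, log scale) of the 21 member genes other than Actb that were called in at least 1 comparison (y axis), 1 point per array, coloured by group. Acta1, Ahnak and Tnnc1 run from mesenchyme 1 (lowest) through P0 to mesenchyme 2 (highest), and Actg2 and Myo10 run the opposite way.

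Among the proteins that coat thin filaments, Tnnc1, the calcium-binding troponin C of slow and cardiac muscle, followed the order of Acta1. It read 131 and 118 in P0, 46.9 and 54.5 on mesenchyme 1 and 290.1 and 292 on mesenchyme 2, a difference from P0 of -1.29 ± 0.108 (adjusted p = 0.000408) and 1.23 ± 0.108 (adjusted p = 0.000101). With 50 added both were under 2-fold, at -0.79 and 0.97. Acta1, Ahnak and Tnnc1 were the 3 members called in all 3 comparisons, each falling on mesenchyme 1 and rising on mesenchyme 2.
Cnn2, a calponin of nonmuscle cells, read 179 and 194 in P0, 143 and 163 on mesenchyme 1 and 293 and 407 on mesenchyme 2. It was higher on mesenchyme 2 than on mesenchyme 1 by 1.18 ± 0.164 (adjusted p = 0.00062), and its second probe gave 1.10 ± 0.11. Without mesenchyme 2 replicate 2 the difference was 0.94 and the call was lost. Without replicate 1 of that group Cnn2 was called against P0 too, at 1.13.
The tropomyosins, which lie along the filament and gate access to it, were not called. Tpm1 read 1536 and 1832 in P0, 1558 and 1589.9 on mesenchyme 1 and 2966 and 2757 on mesenchyme 2, with mesenchyme 2 above both other groups and 0.77 ± 0.111 from P0. Tpm3 read 1264 and 1329 in P0, 1289 and 1330.0 on mesenchyme 1 and 1062 and 996 on mesenchyme 2. Tpm2 differed by -0.77 ± 0.123 on mesenchyme 1 and by 0.02 ± 0.123 on mesenchyme 2.
Tagln, an early marker of smooth muscle, and Cald1, caldesmon, had their highest arrays on mesenchyme 1, as Actg2 did. Tagln was 0.79 ± 0.113 from P0 and Cald1 0.77 ± 0.0885 at the brightest probe and 1.05 ± 0.189 at a dimmer one, which passed the 2-fold limit. Cnn3 and the slow troponin T gene Tnnt1 lay within 2-fold in all comparisons.

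Of the filament crosslinkers, Actn3, the alpha-actinin of fast skeletal muscle, read 62.7 and 78.0 in P0, 101 and 97.1 on mesenchyme 1 and 11.5 and 11.4 on mesenchyme 2. It fell on mesenchyme 2 by 2.61 ± 0.119 (adjusted p = 7.79e-06), from dim levels, and with 50 added by 0.97. Ahnak, a giant scaffold protein under the plasma membrane, read 412 and 432 in P0, 157 and 166 on mesenchyme 1 and 945 and 912 on mesenchyme 2. It fell on mesenchyme 1 by 1.39 ± 0.0873 (adjusted p = 0.000199), rose on mesenchyme 2 by 1.14 ± 0.0873 (adjusted p = 5.79e-05) and stood 5.75-fold apart between them.
Actn1, a nonmuscle alpha-actinin of stress fibres and adhesions, read 1746 and 1839 in P0, 1379.5 and 1496 on mesenchyme 1 and 2892 and 2867 on mesenchyme 2. Its difference between the mesenchymes, 1.00 ± 0.09, lay on the 2-fold limit. It was 0.92 with arrays centred on their medians, 0.94 without mesenchyme 1 replicate 1 and just under 1 without mesenchyme 2 replicate 1, and the call was lost each time. Actn4, the other nonmuscle form, read 1063 and 1105 in P0, 1092 and 1132 on mesenchyme 1 and 943 and 807 on mesenchyme 2 at its brightest probe and was not called. Its dimmest probe read 46.4 and 36.5 in P0, 215 and 195 on mesenchyme 1 and 72.1 and 66.7 on mesenchyme 2, and rose by 2.31 ± 0.136 on mesenchyme 1, so the probes of Actn4 differ too.

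The proteins that hold and recycle monomers held 7 members. On mesenchyme 1 against P0, 1 was called (14.3%, against 5.5% of all probes), and none was in the comparisons with mesenchyme 2, where 18.8% and 25.4% of all probes were. Tmsb10, a beta-thymosin that binds free actin, read 5465 and 5237 in P0, 2207 and 2418 on mesenchyme 1 and 3139.5 and 3133 on mesenchyme 2. It fell on mesenchyme 1 by 1.21 ± 0.0906 (adjusted p = 0.000316) and was -0.77 ± 0.0906 from P0 on mesenchyme 2, with no overlap of groups. Its 2 other probes gave -0.82 ± 0.0917 and -2.22 ± 0.108 on mesenchyme 1, and 0.06 ± 0.0917 and 1.90 ± 0.108 between the mesenchymes, so the size depends on the probe.
The related Tmsb4x read 2517 and 2549 in P0, 2158 and 2196 on mesenchyme 1 and 3234 and 2789 on mesenchyme 2 and stayed within 2-fold. Pfn1, the main profilin, was lower in both passaged cultures by less than 2-fold (-0.75 ± 0.106 and -0.67 ± 0.106), and its second probe gave -0.57 ± 0.0971 and -0.53 ± 0.0971. Cfl1, the filament-severing cofilin, differed by -0.10 ± 0.17 and -0.66 ± 0.17. Pfn2, Cfl2 and Cap1, which helps return monomers to the pool, were not called at their brightest probes. The dimmer Cfl2 probe read 17.2 and 22.3 on mesenchyme 1 and 41.8 and 42.1 on mesenchyme 2. Its difference of 1.10 ± 0.135 between them passed the 2-fold limit, where the brightest probe gave 0.13 ± 0.169.

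The Arp2/3 complex, which starts branched networks at the leading edge, stayed within 2-fold in every comparison. None of its 6 measured members was called. Arpc5 read 1679.7 and 1788 in P0, 1563 and 1487 on mesenchyme 1 and 2179.6 and 2209 on mesenchyme 2, and Actr3 read 1416 and 1352 in P0, 1514 and 1493 on mesenchyme 1 and 1935 and 1875 on mesenchyme 2. Differences from P0 ran from -0.51 to 0.12 on mesenchyme 1 and reached 0.46 on mesenchyme 2. Between the mesenchymes all 6 were positive, 0.19 to 0.91, and 5 passed the adjusted p without the fold limit. In either direction 69.7% of all probes passed that rule between the mesenchymes, and 3016 of 8400 did so with a positive difference. Between mesenchyme 1 and P0 48.2% passed it in either direction, and between mesenchyme 2 and P0 64.5%. The other actin-related proteins comprised Actr1a, a dynactin subunit, and Actr5, Actr6 and Actr8 of chromatin remodelling complexes. Actr1a read 344 and 359 in P0, 396 and 383 on mesenchyme 1 and 403 and 419.9 on mesenchyme 2, Actr5 read 64.9 and 79.9 in P0, 52.2 and 80.0 on mesenchyme 1 and 62.7 and 57.3 on mesenchyme 2, and none of the 4 was called.

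At adhesion sites Zyx, a LIM protein that gathers at strained filaments, read 1259.6 and 1334 in P0, 1174 and 1164 on mesenchyme 1 and 2965 and 2816 on mesenchyme 2. It rose on mesenchyme 2 by 1.16 ± 0.0871 against P0 (adjusted p = 5.34e-05) and was 1.31 ± 0.0871 above mesenchyme 1, the groups not overlapping. Vcl, vinculin, which ties talin to actin, read 1121 and 1090.1 in P0, 1518 and 1379.5 on mesenchyme 1 and 1203 and 1116 on mesenchyme 2 and was not called. Of the proteins that join actin to the membrane, radixin (Rdx) read 23.4 and 22.0 in P0, 41.7 and 41.2 on mesenchyme 1 and 60.0 and 50.5 on mesenchyme 2. It rose on mesenchyme 2 by 1.28 ± 0.109 (adjusted p = 8.85e-05), a call lost with 16 added at 0.88. Its relatives ezrin and moesin did not reach 2-fold, with differences on mesenchyme 2 of 0.53 ± 0.105 and -0.57 ± 0.128.

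Other genes of actin regulation were read from 5 lists. The lists were chosen with earlier results of these data known, so their shares are descriptions and carry no test. In the list of SRF, YAP and TEAD factors with their classic targets, 13 of 24 genes had a named probe. Against P0, 8 of the 13 rose on mesenchyme 2 (61.5%) and none fell, against 10.3% and 8.48% of all probes, and the median was 1.11 against 0.02. Ankrd1, a nuclear ankyrin repeat protein and YAP target, rose by 2.66 ± 0.0902 from 56.9 and 54.0 in P0 to 337 and 362. The matricellular genes Ccn2 and Ccn1 rose by 2.64 ± 0.0923 and 2.47 ± 0.157, and the LIM gene Fhl2 by 2.04 ± 0.116. On mesenchyme 1, Ankrd1 rose by 1.23 ± 0.0902 and Fhl2 fell by 1.25 ± 0.116, and none of the other 11 was called. Srf itself differed by 0.22 ± 0.109 on mesenchyme 1 and 0.61 ± 0.109 on mesenchyme 2.

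**Figure D4:**
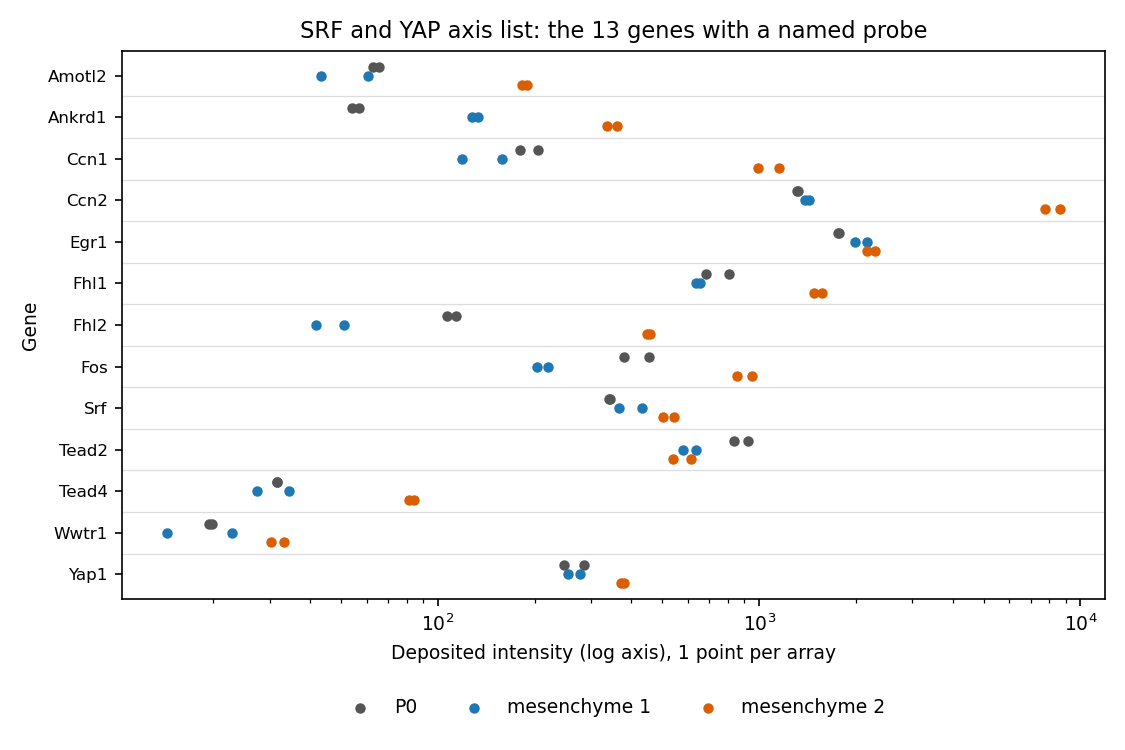
Deposited intensity (x axis, log scale) of the 13 measured genes of the SRF, YAP and TEAD list (y axis), 1 point per array, coloured by group. The mesenchyme 2 arrays of Ccn1, Ccn2, Fhl2 and Ankrd1 lie to the right of all others.

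The counts of the remaining lists stand beside 5.5% of all probes called on mesenchyme 1 (2.62% higher and 2.88% lower) and 18.8% on mesenchyme 2 (10.3% higher and 8.48% lower), each against P0. Small GTPases and kinases had 23 of 40 genes measured, of which 17.4% and 13.0% were called. On mesenchyme 1 the myosin phosphatase subunit Ppp1cb rose by 1.57 ± 0.0838 and the kinase Pak3 by 1.22 ± 0.21, while Rhou stood 2.83-fold lower and Cdc42ep2 fell by 1.55 ± 0.118 (median -0.05). On mesenchyme 2 the GTPases Rhoc and Rhou rose by 1.48 ± 0.106 and 1.47 ± 0.117 and Rac3 fell by 1.36 ± 0.146 (median 0.01). Rhou was thus 7.85-fold higher on mesenchyme 2 than on mesenchyme 1. Of 22 measured nucleators and their regulators (39 listed), 4.55% and 13.6% were called. Nckap1l rose in both passaged cultures, by 1.25 ± 0.117 and 1.21 ± 0.117. The formin Diaph1 and the WAVE gene Wasf1 fell on mesenchyme 2, by 1.69 ± 0.113 and 1.02 ± 0.0939 (medians 0.23 and 0.22).
Of 40 measured capping, severing and bundling proteins (62 listed), 4 (10%) fell on mesenchyme 1 and none rose, against 2.88% and 2.62% of all probes: Espn, Pdlim2, Eps8l2 and Pdlim4, by 1.08 to 1.61 (median 0.16). On mesenchyme 2, 3 rose and 3 fell (median 0.15), which is 15% of the list and below the 18.8% of all probes. The rises were those of Pdlim4 (2.42 ± 0.0855), Eps8l2 (2.19 ± 0.0998) and the villin-like gene Vill (1.79 ± 0.197), and the falls those of Twf2 (-1.90 ± 0.0855), Fscn1 (-1.18 ± 0.105) and Iqgap3 (-1.01 ± 0.111). Of 15 measured adhesion site proteins (30 listed), 20% were called on each mesenchyme. Lims2, Csrp2 and Pxn fell on mesenchyme 1, by 1.84 ± 0.244, 1.11 ± 0.102 and 1.08 ± 0.0927 (median -0.22). Pdzk1, a scaffold of the brush border, Shroom3, which drives apical constriction, and the tight junction gene Tjp1 rose on mesenchyme 2, by 2.66 ± 0.0891, 1.56 ± 0.107 and 1.17 ± 0.0942 (median 0.49).
Between the mesenchymes, 8 genes of the SRF and YAP list were higher on mesenchyme 2 and none lower (median 1.42). The same comparison called 4 GTPase and kinase genes higher and 1 lower (median 0.02), and 3 nucleator genes lower and none higher (median 0.02). It called 6 capping and bundling genes higher and 3 lower (median -0.01), and 5 adhesion genes higher and none lower (median 0.56). In that order the calls were 61.5%, 21.7%, 13.6%, 22.5% and 33.3% of the measured genes of each list. Of all probes 25.4% were called, 13.9% higher and 11.5% lower.

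Markers of other cells were read beside the muscle-type actins. Of 15 fibroblast and mesenchyme markers 4 had a named probe (Thy1, Twist1, Twist2 and Vim), and their summed intensity was 555 and 642 in P0, 509 and 504 on mesenchyme 1 and 346 and 339 on mesenchyme 2. None of the 4 was called. Vim made up most of the sum and differed from P0 by -0.98 on mesenchyme 2, where Thy1, Twist1 and Twist2 differed by 0.09, -0.17 and -0.23. On mesenchyme 1 the differences were -0.17 for Vim and -0.81, -0.75 and -0.65 for the others. Collagen markers such as Col1a1 and Col3a1 have no named probe here. Of the smooth muscle markers that are not members, Des and Smtn were measured, and summed to 231 and 261 in P0, 277 and 297 on mesenchyme 1 and 313 and 323 on mesenchyme 2, where Des rose by 1.08 ± 0.101 against P0. Smtn, most of each sum, read 182 and 219 in P0, 223 and 241 on mesenchyme 1 and 219 and 225 on mesenchyme 2. It was called in no comparison. Of striated muscle markers outside the module only Nppb was measured, at 31.7 and 23.1 in P0, 17.0 and 15.5 on mesenchyme 1 and 153 and 172 on mesenchyme 2, a rise of 2.58 ± 0.159 on mesenchyme 2, and no blood cell marker of 8 had a named probe. The part of such cells in the differences above was not tested. The summed markers of definitive and extraembryonic endoderm, Des and Nppb were all highest on mesenchyme 2, as were Acta1, Myl3 and Myo5b. Other muscle-type genes did not follow: Tagln and Actg2 were highest on mesenchyme 1, and Actc1, Actn3 and Tnnt1 were lowest on mesenchyme 2. The summed pluripotency and fibroblast markers were lowest there, and 10.3% of all probes rose there against P0. Any link among these was not tested.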

How the data were processed

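Per the labels' protocols, RNA of sorted cells was labelled with biotin by a TotalPrep kit from Illumina and hybridised to 1-colour bead arrays. The values used are intensities that the authors normalized and deposited, on a linear scale with a lowest value of 7.49. The submitters' processing notes name BeadStudio. How values were normalized, and why the table holds 11097 of 25697 probes (43.2%), is not stated there. The deposited scanner table was not used, because its 12 value columns carry names that match no sample label. Probes were named through the platform annotation (1 symbol for 10475, several for 0, none for 622), and Entrez identifiers of 10471 matched RefSeq genes of GRCm38.p6, which changed 0 symbols.

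Each named gene was represented by its probe with the highest mean log2 intensity, Actb by all 5 probes, and unnamed probes were kept, which gave 8400 features. Log2 intensities, with no offset and no filter, were fitted with limma 3.58.1 in R 4.3.3 (lmFit, contrasts.fit, eBayes; 1 mean per group over 6 arrays, residual degrees of freedom 3, prior degrees of freedom 3.81), with two-sided p-values adjusted by Benjamini-Hochberg over all features. Values of further probes of a gene come from the same fit over all 11097 probes. The fit was run on data simulated for mesenchyme 1 against P0 over 8400 features. It recovered 89 of 100 rises of 1.5 (log2) and 96 of 100 falls of 2, with 0 false calls. The simulated noise had the spread between duplicate arrays, and all other features had no difference between groups. The simulation therefore checks the code and says nothing of the spread between cultures. The small number of arrays limits precision.

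Values on every array are given for the Actb probes, for members called in a comparison and for the brightest pair of each role group. Of the other lists up to 4 rises and 4 falls are named, or single genes by choice after their values were seen, Srf among them. Members and lists were chosen with earlier results of these data known. Alternatives changed the offset, scaling, filter, probe summary, call rule, block and arrays used.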

Additional observations from a re-analysis of the deposited data

How the results depend on the processing

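The counts of called members were 9, 17 and 17 (mesenchyme 1 against P0, mesenchyme 2 against P0, mesenchyme 2 against mesenchyme 1). Tested against a 2-fold change they were 3, 9 and 12 (of all 8400 features 59, 682 and 1127), and without a fold limit 31, 45 and 49 (4048, 5416 and 5854), the first near the share of all features. With 50 added to every intensity they were 7, 10 and 11 (96, 720 and 1042). Leaving out single arrays gave 9 to 9, 17 to 18 and 16 to 18, where a lone array of a group is assumed to vary like the other groups. An offset of 16, median centring, quantile normalization, a minimum mean intensity of 50, all probes in the fit and the mean of a gene's probes kept each count within 1.5 times. Median centring and quantile normalization called ILMN_2846865 of Actb lower on mesenchyme 2 than on mesenchyme 1, at -1.08 and -1.07, and it was called so without mesenchyme 1 replicate 1 (-1.02) and without mesenchyme 2 replicate 1 (-1.04). With centring ILMN_2588055 was called too, at -1.02. No called member changed direction under any of these alternatives. The cause of the changes was not tested. With replicate number as a block the counts were 9, 17 and 17, and no member's call changed. Same-numbered arrays did not deviate together (correlations across features of -0.003, -0.007 and 0.011), so the numbers share only a label. Low intensities limit the folds of Myl3, Myo7a, Myo5b, Myo1c and Actn3.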
